A study of Mus musculus with 60 samples.

Results

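Transcript levels in the mouse striatum 2 h after an injection of phencyclidine (PCP) were set against those of control mice killed at the same time. The arrays were taken by their labels: 3 of PCP, 3 of saline and 3 of naive mice, 9 of the 60 arrays and 3 of the 20 groups of the series. The series measured striatal RNA on Illumina MouseWG-6 v2 bead arrays at 1, 2, 4 and 8 h after ketamine, memantine, PCP or saline, and in naive mice. PCP mice (the labels spell the drug Phencyclidyne) had received a single 5 mg/kg dose into the peritoneum, saline mice the vehicle alone, and naive mice no injection. All were C57BL/6J mice of 8 to 10 weeks, male by the study's methods, with no genetic change. Each array held RNA pooled from 2 mice, so a group rests on 3 pools, and differences between the mice of a pool were not measured. The naive arrays stand for the undisturbed animal and the saline arrays for the injection itself, and the main comparison set PCP against the mean of both.

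PCP blocks the open channel of the NMDA receptor, a glutamate-gated calcium channel of excitatory synapses, and it is known as a dissociative drug that raises dopamine release and produces psychosis-like states. The striatum consists mainly of GABAergic projection neurons that receive glutamate input from cortex and thalamus. Calcium entry through NMDA receptors drives immediate early genes, such as those of the Egr family, Arc and Npas4. Stressful events also raise corticosterone, the glucocorticoid hormone of rodents. It acts in neurons, glia and vessels through the glucocorticoid receptor, a transcription factor whose targets include Sgk1, Tsc22d3, Fkbp5 and Per1.

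The median raw signal ran from 201.4 to 394.5 intensity units over the 9 arrays, and arrays of the same group correlated at 0.95 to 0.97. Markers of striatal projection neurons were bright, with 16 of 20 above the 75th percentile of probes on all 9 arrays and a median percentile of 96.7. Saline replicate 3 stood apart in choroid plexus and ependyma markers: their summed intensity was 5410 to 11546 units on the PCP arrays and reached 55630 on that saline array, against 4899 to 7747 on the naive arrays. Results for Sgk1 and for some gene lists are given with and without saline replicate 3. Most other values include it, and some of them also move with it. Strip positions on the BeadChips followed treatment at 2 h (D, E and E for PCP, F for saline, C for naive), so position and treatment cannot be told apart. The 9 arrays lay on 7 BeadChips, and in 2 cases a PCP array shared its BeadChip with a control. In bulk tissue, fewer cells of a type and less RNA per cell cannot be told apart.

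Sgk1, a serine/threonine kinase that acts on ion channels and transporters and is a direct target of the glucocorticoid receptor, was the gene that rose 2 h after PCP. Its log2 intensity was 13.29, 13.15 and 13.42 on the PCP arrays, 12.04, 11.90 and 12.90 on the saline arrays and 12.08, 11.48 and 11.80 on the naive arrays. The 3 PCP arrays lay above all 6 controls, and saline replicate 3 was the control nearest to them. Sgk1 rose by a log2 of 1.26 (SE 0.19, 95% interval 0.87 to 1.65), a 2.39-fold change, with a limma adjusted p of 0.00206 over 44236 probes. It was the only probe called, 0.00226% of the probes tested, and no probe was called lower. Without adjustment, 783 probes were higher (1.77%) and 955 lower (2.16%) at a p under 0.05.

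The size of the Sgk1 difference was not the same against each kind of control. Against naive arrays alone it was higher by 1.50 (SE 0.22, adjusted p = 9.21e-04), and against saline arrays alone by 1.01 (SE 0.22, adjusted p = 0.3). Without saline replicate 3 the difference from saline was 1.32, with an adjusted p of 0.00864, and the difference from all controls was 1.41 (adjusted p = 5.47e-05). Without PCP replicate 1 or replicate 3 the call against all controls was lost (adjusted p = 0.0562 and 0.144). The 2 comparisons on a shared BeadChip gave 1.49 (PCP replicate 1 minus naive replicate 3) and 1.39 (PCP replicate 3 minus saline replicate 1). The call was also lost with BeadChip as a fixed block (1.19, adjusted p = 0.144), with scaling by array medians (1.63, adjusted p = 0.384) and in a fit of the 9 arrays alone (1.26, adjusted p = 1). Sgk1 was measured by 1 probe, and its isoforms were not told apart.

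The promoter windows of Sgk1 and of Map3k6, a kinase of the stress-activated MAP kinase cascade, are shown as examples. Each holds a match to the palindromic motif bound by the glucocorticoid receptor. The motif searched was GNACANNNTGTNC, which reads the same on both strands, within 250 bases before to 50 after the RefSeq gene starts of GRCm38.p6. It occurred in 156 of 32851 windows (0.475%) and in 145 of 27025 genes (0.537%). Of the glucocorticoid target genes described below, 29 had windows and 4 of these held a match (Sgk1, Map3k6, Mt1 and Fam107a). Sgk1 held it in 1 of its 6 windows. In that order, these 4 genes differed from all controls by 1.26, 0.64, −0.02 and 0.21. The list was made of known receptor targets, so its share of matches is no independent evidence. Of the immediate early genes described below, 27 had windows and 1 of these held a match (Jund). The 250 bases before the start are printed on the plus strand with the match in capitals. They lie at chr10:21993640-21993889 for Sgk1, with the match 188 to 176 bases before the start, and at chr4:133240568-133240817 for Map3k6, with the match 181 to 169 bases before the start. The N positions of the motif are free, so a match need not be a full palindrome, and that of Map3k6 is not. A match of letters is a description and not a measured binding site.
Sgk1: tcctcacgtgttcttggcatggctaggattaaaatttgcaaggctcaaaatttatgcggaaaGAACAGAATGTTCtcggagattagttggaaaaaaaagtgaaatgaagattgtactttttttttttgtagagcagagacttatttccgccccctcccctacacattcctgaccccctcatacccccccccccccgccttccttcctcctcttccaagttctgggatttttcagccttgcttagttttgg
Map3k6: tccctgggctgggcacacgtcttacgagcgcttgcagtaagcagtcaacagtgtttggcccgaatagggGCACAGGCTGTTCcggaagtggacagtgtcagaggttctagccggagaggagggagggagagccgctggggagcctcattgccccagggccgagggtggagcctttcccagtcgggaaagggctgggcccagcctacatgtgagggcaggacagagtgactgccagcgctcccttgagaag

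Polr3e, a subunit of RNA polymerase III, came nearest to a further call. Its log2 intensity was 9.77, 9.70 and 9.32 on the PCP arrays, 9.15, 9.0 and 8.79 on the saline arrays and 8.61, 8.49 and 8.55 on the naive arrays. All PCP arrays lay above all controls, and the saline arrays lay above the naive ones. Against naive mice Polr3e rose by 1.05 (SE 0.19, adjusted p = 0.0472), where it and Sgk1 were the 2 probes called (0.00452%). That call was kept in 1 of the 9 fits that left out an array. Against all controls the difference was 0.83 (SE 0.17, adjusted p = 0.211) and against saline 0.62 (adjusted p = 0.811). A second and dimmer Polr3e probe was at 0.18 (SE 0.26). No probe was called against saline alone, where 2262 (5.11%) had an unadjusted p under 0.05 by limma. The injection alone, saline minus naive, gave no call either, with 1880 such probes (4.25%), and Sgk1 was at 0.49 and Polr3e at 0.43 in it.

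**Figure D1:**
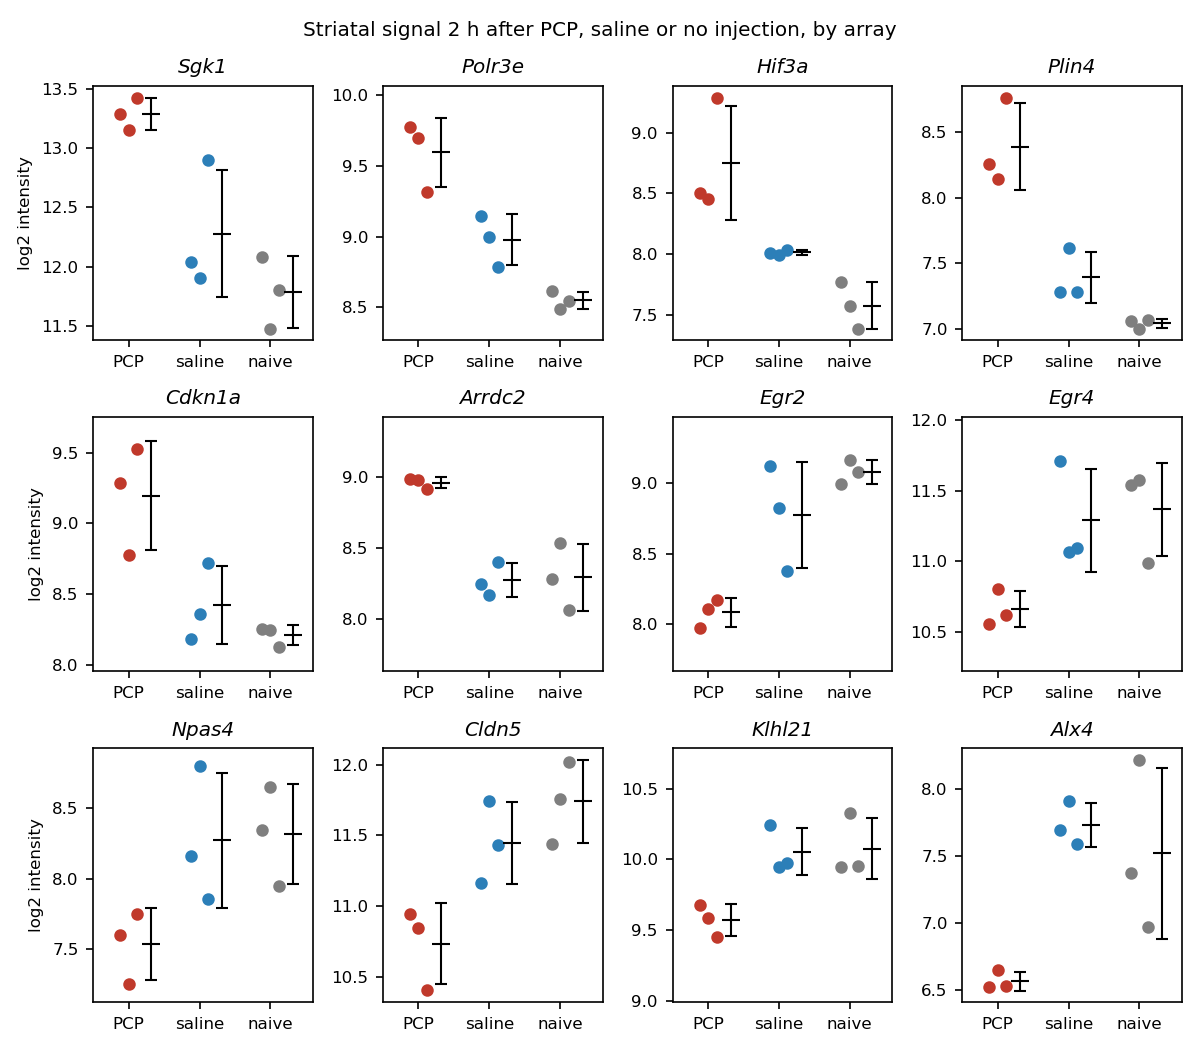
Log2 intensity (y axis) of 12 genes on the 3 PCP, 3 saline and 3 naive arrays at 2 h (points), with the group mean and SD (black bars, n = 3 each). For Sgk1 the PCP points lie from 13.15 to 13.42 and the highest control is saline replicate 3 at 12.90, whereas for Egr2 the PCP points lie from 7.97 to 8.17, below every control.

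Of the 20 gene lists, that of glucocorticoid receptor targets had the highest median. Of its 35 genes tested, 1 passed (Sgk1), against 0.00528% of all genes. A further count was made without adjustment: 12 were higher and 1 lower at an unadjusted p under 0.05, against 0.998% and 2.28% of all genes. On 8 genes all PCP arrays lay above all controls and on 1 below, against 0.697% and 1.18% of genes. The median difference was 0.21 and 26 of 35 genes were higher, where the median over 18936 genes was −0.02 and 46.3% were higher. The median was 0.11 against saline (0.18 without saline replicate 3), 0.31 against naive, and 0.19 for saline minus naive, with 24 of 35 genes higher in saline than in naive mice. The mean level of the list, set to 0 over the controls, was 0.38, 0.25 and 0.24 on the PCP arrays, −0.06, 0.07 and 0.23 on the saline arrays and −0.02, −0.13 and −0.08 on the naive arrays. Saline replicate 3, the array with the choroid plexus signal, thus came close to the PCP arrays, and without it the median difference was 0.20 with 28 of 35 genes higher. The study had named 15 of these genes from the same samples, so they are not independent evidence of a direction. Their median was 0.64, and the 20 that the study did not name had a median of 0.15 with 13 higher. Of the 12 genes higher at an unadjusted p under 0.05, 9 were among those 15, as were 7 of the 8 above all controls. Among the 20 others these counts were 3 and 1, against 0.998% and 0.697% of all genes.

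After Sgk1, Plin4 and Hif3a had the largest differences of this list. Plin4, a coat protein of lipid droplets, was at 8.26, 8.14 and 8.77 on the PCP arrays, 7.28, 7.62 and 7.28 on the saline arrays and 7.06, 7.0 and 7.07 on the naive arrays, a difference of 1.17 (SE 0.30, adjusted p = 0.947). Hif3a, a hypoxia-inducible factor subunit that restrains its relatives, was at 8.50, 8.45 and 9.29 on the PCP arrays, 8.01, 8.00 and 8.04 on the saline arrays and 7.77, 7.57 and 7.39 on the naive arrays, a difference of 0.95 (SE 0.22, adjusted p = 0.947). Neither gene overlapped between PCP and control arrays, yet neither passed. In both, PCP replicate 3 was the highest array, and without it the differences were 0.99 for Plin4 and 0.68 for Hif3a. The other 2 Hif3a probes, which were dimmer, were at 0.10 and 0.34.

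Cdkn1a, the cyclin-dependent kinase inhibitor p21, was at 9.28, 8.77 and 9.53 on the PCP arrays, 8.18, 8.36 and 8.72 on the saline arrays and 8.25, 8.25 and 8.12 on the naive arrays (difference 0.88, SE 0.25, adjusted p = 1). Its lowest PCP array lay just above saline replicate 3, and its other 2 probes were at 0.52 and 0.54. Arrdc2, an arrestin-domain protein, was at 8.99, 8.98 and 8.92 on the PCP arrays, 8.25, 8.17 and 8.40 on the saline arrays and 8.28, 8.54 and 8.06 on the naive arrays, a difference of 0.68 (SE 0.20, adjusted p = 1). Its 3 PCP arrays were close to one another and above every control, and it differed by 0.69 from saline and 0.67 from naive mice, with a dimmer probe at 0.08. Plekhf1, an endosomal protein, was at 8.53, 8.40 and 8.29 on the PCP arrays, 7.37, 7.45 and 7.93 on the saline arrays and 7.73, 7.83 and 8.15 on the naive arrays (difference 0.66, SE 0.19, adjusted p = 1). It was at −0.32 for saline minus naive, and its second probe was at 0.02 for PCP.

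Further targets whose PCP arrays lay above all controls were Map3k6 (0.64, SE 0.21) and Angptl4, an inhibitor of lipoprotein lipase (0.45, SE 0.16). Pdk4, which restrains glucose oxidation, was at 0.56, Sult1a1, a phenol sulfotransferase, at 0.66, and Nfkbia, the inhibitor of NF-kappaB, at 0.48, each with overlapping groups. For Nfkbia the PCP arrays ran from 8.59 to 10.23, wider than the difference. Tsc22d3 and Fkbp5 are both widely used as markers of receptor activity. Tsc22d3, an anti-inflammatory leucine zipper protein, was at 12.22, 12.36 and 11.96 on the PCP arrays, 12.27, 11.79 and 12.51 on the saline arrays and 11.94, 11.67 and 11.67 on the naive arrays. This brightest Tsc22d3 probe differed by −0.01 (SE 0.20) from saline and by 0.42 (SE 0.20) from naive mice. The other 2 Tsc22d3 probes, which were dimmer, differed by 0.59 and 0.31 from saline and by 0.65 and 0.35 from naive mice. Fkbp5, a chaperone that restrains the receptor, differed by −0.09 (SE 0.20) from saline and by 0.46 (SE 0.20) from naive mice, with saline arrays spread from 8.79 to 9.92. Per1, a clock gene and target, lay below all controls at −0.34 (SE 0.16), but at −0.03 under scaling by array medians and with other probes at −0.14 and −0.09, and Dusp1, a MAP kinase phosphatase, was at −0.18 (SE 0.15), but at 0.14 under that scaling. None of these differences passed.

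**Figure D2:**
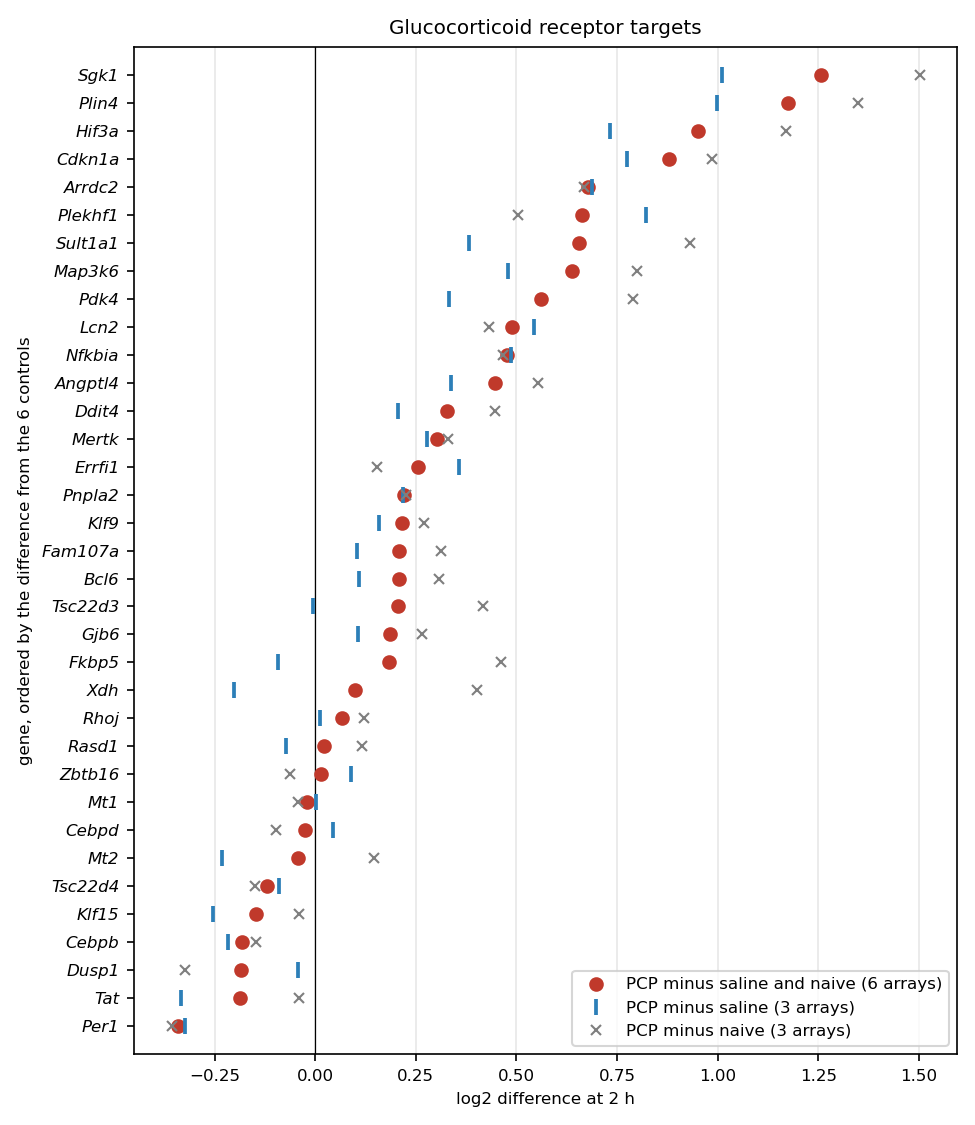
Log2 difference at 2 h (x axis) of each of the 35 glucocorticoid receptor targets (y axis), as PCP minus all 6 controls (circles), PCP minus saline (bars) and PCP minus naive (crosses). Circles lie between −0.34 (Per1) and 1.26 (Sgk1), crosses reach 1.50 (Sgk1) and −0.36 (Per1), and crosses lie to the right of bars in 24 of 35 genes, also for Tsc22d3 (0.42 against naive, −0.01 against saline).

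Immediate early and activity genes, which report synaptic input within the hour, were represented by 35 genes, and none passed. At an unadjusted p under 0.05, 6 were lower (Egr2, Egr4, Egr1, Npas4, Arc and Junb) and 1 was higher (Gadd45g, 0.40), against 2.28% and 0.998% of all genes. On 4 genes (Egr1, Egr2, Egr4 and Npas4) all PCP arrays lay below all controls, against 1.18% of genes. The median was −0.14 with 12 of 35 genes higher, although scaling by array medians placed it at 0.04, where the median of all genes itself was 0.16. Without PCP replicate 3 the median was −0.05, and without PCP replicate 1 it was −0.24. The motif TGACGTCA is the palindrome of the cAMP response element, through which calcium acts on many such genes. It was found in 2 of the 27 genes of this list with promoter windows (Btg2 and Maff), against 2.03% of all genes. The glucocorticoid targets held it at a similar share, in 2 of 29 genes with windows (Dusp1 and Errfi1).

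Egr2, a zinc finger transcription factor induced by synaptic activity, was at 7.97, 8.11 and 8.17 on the PCP arrays, 9.12, 8.82 and 8.38 on the saline arrays and 8.99, 9.16 and 9.08 on the naive arrays. The groups did not overlap, and the difference was −0.84 (SE 0.20, adjusted p = 0.947), 1.79-fold higher in controls. Its relative Egr4 was at 10.56, 10.80 and 10.62 on the PCP arrays, 11.71, 11.07 and 11.09 on the saline arrays and 11.54, 11.58 and 10.99 on the naive arrays (−0.67, SE 0.21, adjusted p = 1). Of the other members of the family, Egr1 was at −0.40 (−0.03 under scaling by array medians) and Egr3 at −0.14 (0.23 under that scaling). Npas4, a calcium-dependent transcription factor of neurons, was at 7.60, 7.25 and 7.75 on the PCP arrays, 8.16, 8.80 and 7.86 on the saline arrays and 8.34, 8.65 and 7.95 on the naive arrays (−0.76, SE 0.24, adjusted p = 1). Its highest PCP array lay just under saline replicate 3, and a second, dimmer Npas4 probe was on the other side of 0, at 0.50 (SE 0.34).

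Arc, which controls AMPA receptor traffic at synapses, was at 9.09, 8.68 and 8.47 on the PCP arrays, 9.41, 9.15 and 9.04 on the saline arrays and 9.40, 9.80 and 9.97 on the naive arrays (−0.72, SE 0.24, adjusted p = 1). PCP and saline overlapped by 1 array, and saline minus naive was −0.52. Of 6 Fos and Jun genes, subunits of AP-1, 2 were higher and 4 lower: Fos was at 0.27, Fosb at 0.33, Jun at −0.31, Junb at −0.65, Jund at −0.40 and Fosl2 at −0.15 (0.11 under scaling by array medians). Markers of cortical and hippocampal neurons, cells that express these genes strongly, also differed among the arrays. Their mean level was 0.34, −0.41 and −0.36 on the PCP arrays, 0.15, 0.03 and −0.35 on the saline arrays and 0.06, 0.03 and 0.08 on the naive arrays. Against all controls, 7 of 9 had a negative difference (4 of 9 under scaling by array medians). Their median was 0.03 against saline (−0.22 without saline replicate 3) with 5 of 9 higher, and −0.21 against naive mice with 2 of 9 higher. Their summed intensity was 5024 to 8969 units on the PCP arrays, 6834 to 7267 on the saline arrays and 6900 to 8688 on the naive arrays. The mean level of the immediate early list was −0.04, −0.19 and −0.23 on the PCP arrays, −0.04, 0.07 and −0.05 on the saline arrays and 0.02, −0.03 and 0.02 on the naive arrays. Both lists were highest among the PCP arrays on replicate 1, where Arc and Junb were also highest and Egr1, Egr2 and Egr4 lowest. The part of these cells in the result was not tested.

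**Figure D3:**
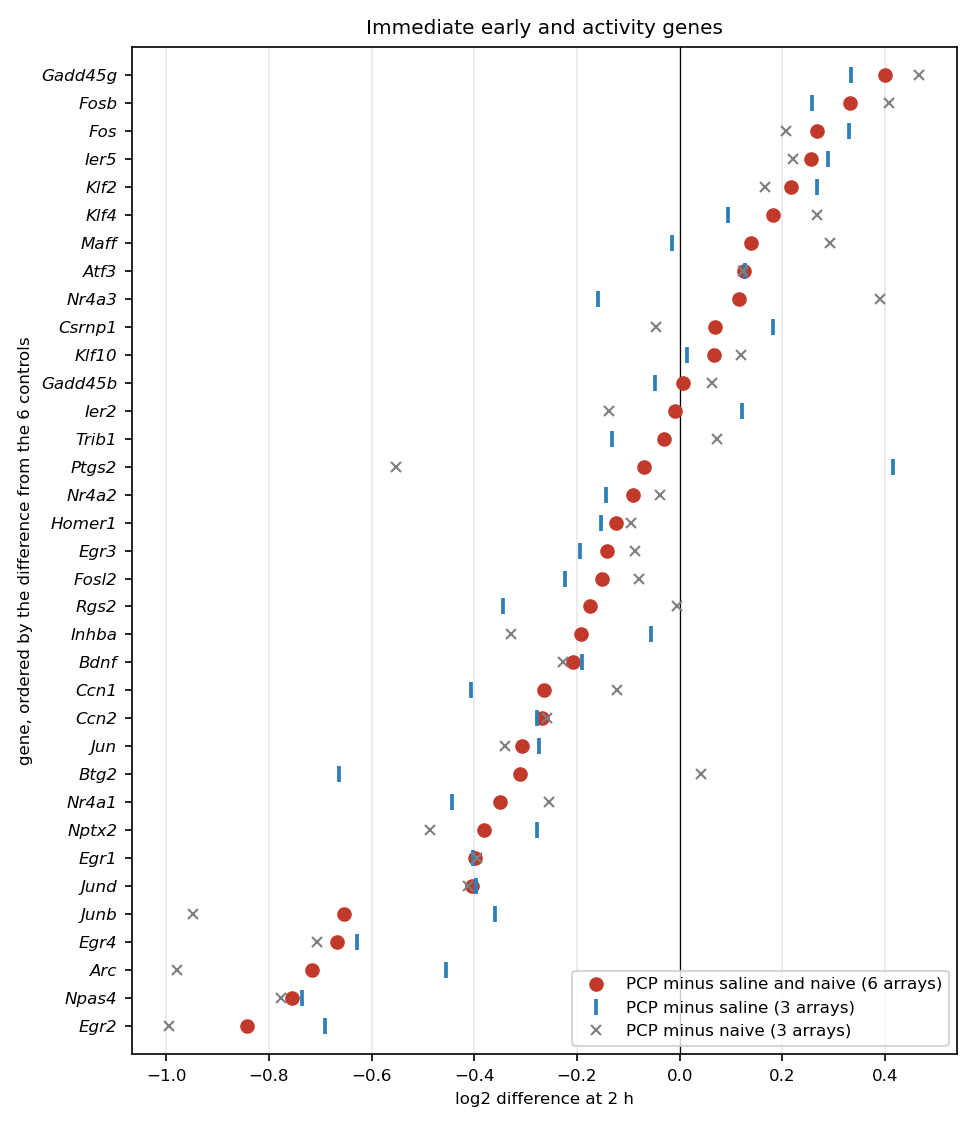
Log2 difference at 2 h (x axis) of each of the 35 immediate early and activity genes (y axis), as PCP minus all 6 controls (circles), PCP minus saline (bars) and PCP minus naive (crosses). Egr2 (−0.84), Npas4 (−0.76) and Arc (−0.72) lie at the lower end and Gadd45g (0.40) at the upper end, and under scaling by array medians the median of the list was 0.04 in place of −0.14.

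Negative regulators of MAP kinase signalling, which MAP kinase activity itself induces, had a median of −0.08 (0.02 under scaling by array medians) over 14 genes, with 3 lower at an unadjusted p under 0.05, against 2.28% of all genes, and none called. Dusp14 was at 9.46, 9.51 and 8.76 on the PCP arrays, 9.76, 9.84 and 9.55 on the saline arrays and 9.93, 9.65 and 9.88 on the naive arrays (−0.52, SE 0.19, adjusted p = 1, and −0.28 under scaling by array medians). Its groups did not overlap, and PCP replicate 3 was the lowest. Dusp16 was at −0.32 (−0.03 under that scaling), with 3 other probes between −0.08 and −0.05. Dusp6, a phosphatase that switches off ERK, was at −0.31 (0.03 under that scaling), with other probes at −0.28 and 0.34.

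Cldn5, the tight junction protein of brain capillaries, was among the genes with the largest negative differences. It was at 10.95, 10.85 and 10.41 on the PCP arrays, 11.16, 11.75 and 11.43 on the saline arrays and 11.44, 11.76 and 12.02 on the naive arrays. The groups did not overlap, and the difference was −0.86 (SE 0.22, adjusted p = 0.947). Of 13 endothelial and mural markers, Cldn5, Cdh5 (−0.36) and Tie1 (−0.27) lay below all controls on all PCP arrays, Rgs5, a pericyte marker, lay above (0.36), against 1.18% of all genes below and 0.697% above. The second Cdh5 probe was at −0.10. The median of the markers was −0.09 (0.12 under scaling by array medians). Their mean level was −0.06, −0.05 and −0.32 on the PCP arrays, −0.13, 0.02 and 0.00 on the saline arrays and −0.09, 0.03 and 0.16 on the naive arrays, and their summed intensity was 9845 to 12539 units on the PCP arrays, 11190 to 14855 on the saline arrays and 12582 to 15881 on the naive arrays. The part of vessel content in the Cldn5 value was not tested. Vegfa, the vascular growth factor, was at −0.42 (SE 0.19), but at −0.08 under scaling by array medians and at 0.06 and 0.03 by its other probes. Slc2a1, the glucose transporter of capillaries and glia, lay above all controls at 0.55 (SE 0.17). Neither gene was called.

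The remaining genes named by a small unadjusted p were more mixed. Spsb1, an adaptor of ubiquitin ligases, was at 10.08, 9.72 and 10.09 on the PCP arrays, 9.27, 9.17 and 9.62 on the saline arrays and 9.46, 9.76 and 9.20 on the naive arrays (0.55, SE 0.15, adjusted p = 1), but its second, dimmer probe was at −0.60. Usp40, a ubiquitin protease, was at 0.80 (SE 0.23) with a brighter probe at −0.19, and Dctn1, a subunit of dynactin, at 0.90 (SE 0.26) with overlapping groups. Among the lower ones, Alx4, a homeobox gene, was at 6.52, 6.65 and 6.53 on the PCP arrays, 7.70, 7.91 and 7.59 on the saline arrays and 7.38, 8.22 and 6.97 on the naive arrays (−1.06, SE 0.25, adjusted p = 0.947). Its PCP values lay below the median level of the tested probes (7.09), and its other 2 probes were at 0.23 and 0.13. Klhl21, an adaptor for cullin ligases in mitosis, was at 9.68, 9.58 and 9.45 on the PCP arrays, 10.25, 9.95 and 9.98 on the saline arrays and 9.95, 10.33 and 9.96 on the naive arrays (−0.50, SE 0.14, adjusted p = 1). Gpr84, a fatty acid receptor of myeloid cells, was at −0.68 (SE 0.17) with overlapping groups and a brighter probe at −0.18 (SE 0.21). Sgk2, a relative of Sgk1, was at −0.53 (SE 0.16) with a brighter probe at −0.15. Among all 16 genes named by small p, those of earlier paragraphs included, 9 had further probes, and 6 of these had all probes on the same side of 0. The exceptions were Spsb1, Usp40 and Alx4.

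Within BeadChips, the 16 genes named by small p (Sgk1 included) all kept their direction for PCP replicate 1 minus naive replicate 3. For PCP replicate 3 minus saline replicate 1, 15 of 16 did. The exception was Gpr84 (0.02). These arrays are part of the comparison that chose the genes, and beyond Sgk1 the choice required the same sign against saline and naive. The agreement is therefore a description.

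The other gene lists held few differences. Circadian clock genes had a median of 0.01 over 20 genes, with Hlf (−0.48, SE 0.19), Tef (−0.32, but 0.03 under scaling by array medians and 0.12 by a second probe) and Per1 lower at an unadjusted p under 0.05, against 2.28% of all genes. Lipid droplet and fatty acid oxidation genes had a median of 0.08, insulin signalling and glucose uptake 0.03, NF-kappaB and IL-6 signalling 0.00, and heat shock and chaperone genes 0.13 with 13 of 15 higher, against 46.3% of all genes, where no member passed in any of them. The heat shock median was 0.08 without naive replicate 3, 0.09 without PCP replicate 3 and 0.25 without PCP replicate 1. Ionotropic and metabotropic glutamate receptor genes, the family of the drug's main target, had a median of 0.07 and no member at an unadjusted p under 0.05. The monoamine and sigma targets of PCP had a median of 0.12 and genes of BDNF and mTOR signalling −0.02 (0.20 under scaling by array medians). Leaving out 1 array turned the sign of several of these medians, to −0.08 for the circadian list without PCP replicate 1, −0.05 for the NF-kappaB list without naive replicate 3, −0.06 for the glutamate receptors without PCP replicate 3 and 0.04 for the BDNF list without PCP replicate 3. Among genes that the study names, Rgcc, a cell cycle regulator, was at 10.89, 10.91 and 10.88 on the PCP arrays, 10.57, 10.64 and 10.54 on the saline arrays and 10.38, 10.50 and 10.67 on the naive arrays (0.34, SE 0.12, adjusted p = 1). The PCP arrays were close to one another and above all controls. Fgf11, an intracellular fibroblast growth factor, was at −0.61 (SE 0.24), with −0.91 against saline and −0.30 against naive mice. Hes5, a Notch target, was at −0.46 (SE 0.17).

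Over markers of the tissue's cell types, medians were small. Striatal projection neurons had a median of −0.02 (0.33 under scaling by array medians), interneurons 0.10, oligodendrocytes 0.05, microglia 0.00 and astrocytes 0.13, with no member called. The interneuron list includes Gad1 (0.30) and Gad2 (0.185), which mark GABAergic cells in general, projection neurons included. Sox9, a transcription factor of astrocytes, lay below all controls at −0.32 (SE 0.13), but at 0.03 under scaling by array medians and at −0.04 by a second probe.

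**Figure D4:**
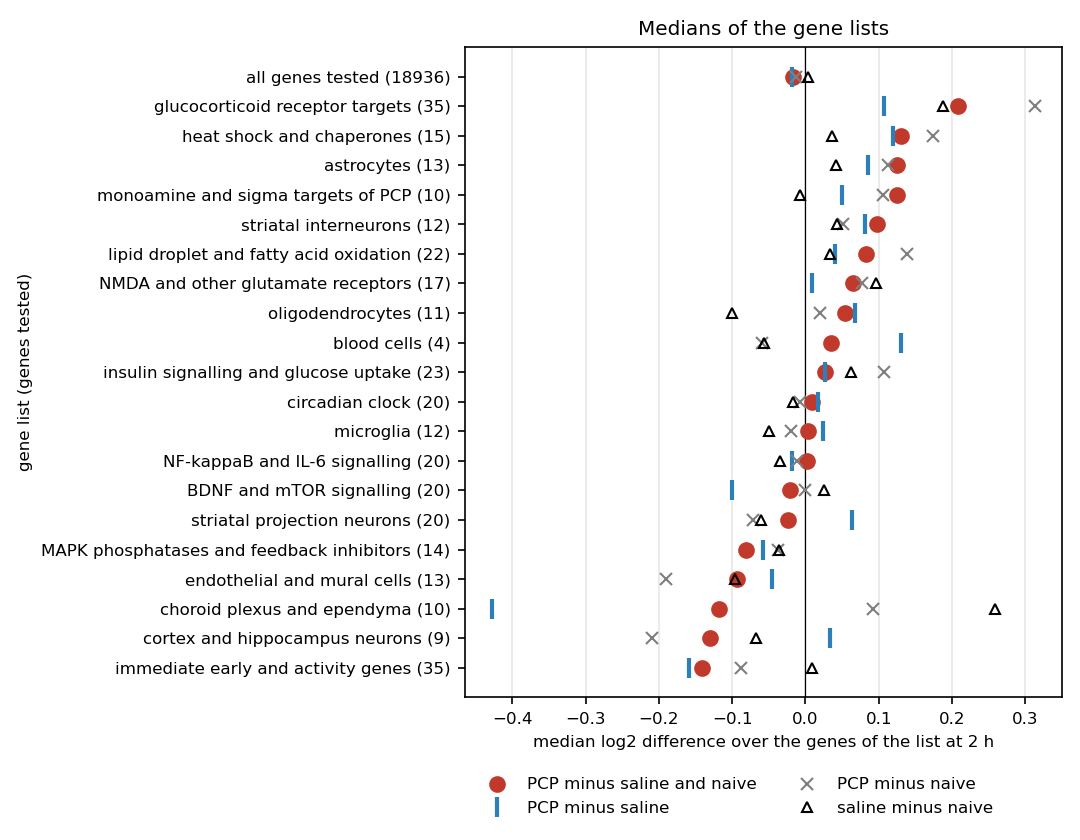
Median log2 difference at 2 h (x axis) over the tested genes of each list (y axis, number of genes in brackets), as PCP minus all controls (circles), PCP minus saline (bars), PCP minus naive (crosses) and saline minus naive (triangles). Glucocorticoid receptor targets lie farthest to the right (0.21) and immediate early genes farthest to the left (−0.14, or 0.04 under scaling by array medians), and the choroid plexus list is split by saline replicate 3 (−0.43 against saline, but 0.11 without that array, and 0.09 against naive).

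Values at the other times show how the 2 h differences stand in the course after PCP. Each was taken against saline and naive arrays of its own time. Controls of those times include the arrays least like the rest of the 60. Averaged over all pairs, the correlation of saline replicates 3 and 1 at 4 h was 0.934 and 0.940. For saline replicate 3 at 1 h it was 0.944, and for saline replicate 1 at 8 h 0.953. The 9 arrays at 2 h had 0.959 to 0.970. Values at 1, 4 and 8 h are given with these low saline arrays included. Sgk1 was at 0.89, 1.26, −0.08 and 0.47 at 1, 2, 4 and 8 h (SE 0.19 each). Its 2 h difference exceeded that at 4 h by 1.34 (SE 0.27, adjusted p = 0.38), and without saline replicate 3 by 1.49 with an adjusted p of 0.0274. Plin4 was at 0.10, 1.17, 1.34 and 0.92 (SE 0.30), and Hif3a at 0.18, 0.95, 0.52 and 0.05 (SE 0.22). Among the lower genes, Egr2 was at −0.01, −0.84, −0.06 and 0.22 (SE 0.20), Npas4 at 0.44, −0.76, 0.07 and 0.11 (SE 0.24) and Cldn5 at −0.07, −0.86, 0.16 and 0.27 (SE 0.22). Each of these 3 lay lowest at 2 h, but they were named by their small p at 2 h. A lowest value at that time is partly set by this choice and is a description. Npas4 differed by −1.19 (SE 0.34, adjusted p = 1) between 2 h and 1 h. No probe passed the test of a difference between 2 h and 1, 4 or 8 h, where 1894 (4.28%), 1984 (4.49%) and 2004 (4.53%) probes had an unadjusted p under 0.05 by limma. The medians of the glucocorticoid targets were 0.19, 0.21, 0.19 and 0.12 at the 4 times, and those of the immediate early genes 0.23, −0.14, 0.07 and 0.03.

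**Figure D5:**
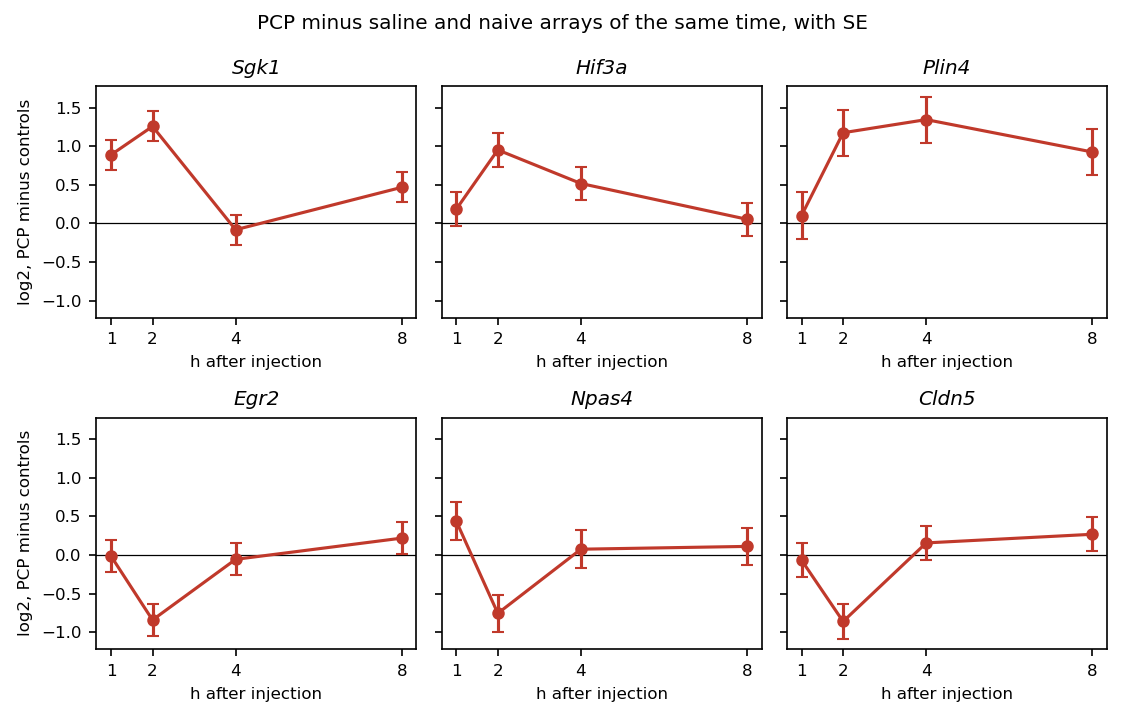
Log2 difference of PCP from the saline and naive arrays of the same time (y axis), plotted over the hours since injection (x axis: 1, 2, 4 and 8 h), with SE as bars (3 PCP and 6 control arrays at each time). Sgk1 stands at 1.26 at 2 h and −0.08 at 4 h, and Plin4 stays at 0.92 at 8 h. Egr2, Npas4 and Cldn5 have their lowest value at 2 h, the time whose values served to name the genes.

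The other NMDA antagonists at 2 h were given at other doses (ketamine 20 mg/kg, memantine 15 mg/kg) and share the 6 control arrays with PCP, so the values stand side by side with no comparison. Ketamine and PCP are arylcyclohexylamines and memantine an aminoadamantane. Cell type markers also differed between the drug groups. The choroid plexus and ependyma median was −0.12 with PCP, 1.13 with ketamine and 0.13 with memantine. That of projection neurons was −0.02, −0.33 and −0.01, with 1 of 20 markers higher with ketamine. The part of tissue content in the values below was not tested. Sgk1 was at 1.26 with PCP, 0.72 with ketamine and 1.52 with memantine, Plin4 at 1.17, 1.33 and 1.47, Hif3a at 0.95, 0.95 and 0.93, and Polr3e at 0.83, 0.45 and 1.04. Egr2 was at −0.84 with PCP, −0.53 with ketamine and −0.33 with memantine, Npas4 at −0.76, 0.01 and 0.52, Arc at −0.72, −0.08 and 0.27, and Cldn5 at −0.86, −0.52 and −0.70. The median of the glucocorticoid targets was 0.21 with PCP, 0.27 with ketamine and 0.39 with memantine, and that of the immediate early genes −0.14, −0.04 and 0.02. In the fit that gave 1 call for PCP, 2 probes (0.00452%) were called for ketamine and 4 (0.00904%) for memantine.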

How the data were processed

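For each array the authors pooled striatal RNA of 2 mice, labelled it and hybridized it to bead arrays on 10 BeadChips of 6 arrays. Of the deposited tables, the main values came from the one of linear intensity, exported by the authors with no normalization, detection p or control probes. The other, used as an alternative, has log2 values from which the authors had subtracted background and which they quantile-normalized in beadarray. Groups, replicate numbers and BeadChips came from the labels.

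Background was modelled by normexp (offset 50), arrays were brought to common quantiles and log2 was taken (limma 3.58.1, R 4.3.3). Probes ranking over the 25th percentile of at least 3 arrays were tested, 44236 of 45281. The platform annotation gave 1 gene for 34885 of all probes, several for 18 and none for 10378.

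The lmFit and eBayes model had a mean for each of 20 groups and used the 60 arrays together (40 residual and 7.24 prior degrees of freedom). Contrasts were PCP 2 h against saline and naive 2 h together, against each, saline against naive, and between times. P-values were adjusted by Benjamini-Hochberg across probes and called under 0.05. They measure the spread between pools, which the study describes as biological replicates. The steps were tested on simulated data.

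In counts over lists a gene was represented by its brightest probe. Named were called genes, filled up to 10 higher and 6 lower genes by smallest unadjusted p among brighter probes with the same sign against saline and naive, up to 4 members per list by smallest p, and genes that the study names (100 in all). Further list members and probes outside this rule were named after their values were seen. The comparison and the 20 gene lists, from general knowledge, were chosen with earlier results of these data known. Promoter letters and positions are from RefSeq tables (GRCm38.p6), which held promoters of 80 of the 100 named genes. Replicate numbers are shared between groups but did not pair the arrays (correlations of deviations from group means of −0.31 to 0.01 between arrays of the same number). Alternatives were other normalizations, filters, BeadChip and replicate blocks, variance settings, fewer arrays, either control alone and leaving out each array.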

Additional observations from a re-analysis of the deposited data

Results flagged for a closer look

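Among the 6 control arrays of each of 100 named genes, the highest or lowest array was set against the rest by its gap relative to the range, a rule that chance meets in about 1 in 20 groups. It was met by 3 genes, all of them markers of cell types and all on saline arrays. Opalin, an oligodendrocyte gene, was at 11.582 on saline replicate 1, where the other controls lay from 12.009 to 12.204. Tmem119, a microglial gene, was at 8.866 on saline replicate 2, where the others lay from 8.34 to 8.52. Kdr, a receptor of endothelial cells, was at 8.5367 on saline replicate 3, where the others lay from 7.13 to 7.63.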

How the results depend on the processing

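The count of called probes was small enough for single choices to end it. Against all controls it was 1 (Sgk1) and became 0 with scaling by array medians, with BeadChip as a fixed block and with only the 9 arrays fitted, and 0 to 1 when an array was left out. The Sgk1 difference stayed positive throughout, at 1.63 with scaling by array medians (adjusted p = 0.384), 1.19 with the fixed block (0.144), 1.26 on 9 arrays alone (1) and 1.16 to 1.41 without an array (5.47e-05 to 0.144). Against saline the count of 0 became 1 without background correction (Gjb2), 2 with the authors' values, 2 with BeadChip as a fixed block, and 0 to 5 without an array, highest without saline replicate 3. Apart from Sgk1 (1 of the 5), the probes in these counts (Gjb2, Astn2, Dhrs2 and unnamed ones) were lower with PCP, and they were named after their values were seen. Against naive the count of 2 became 0 with scaling by array medians, 0 with the fixed block, 1 with BeadChip as a random block, 0 with only the arrays compared, and 0 to 2 without an array, lowest without naive replicate 2. Saline against naive gave 0 to 1 without an array (Olfr1508 without saline replicate 2), and 2 h against 4 h gave 0 to 2 (Sgk1 and Dhrs2 without saline replicate 3).

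With the replicate number as a block, Sgk1 remained the call against all controls (adjusted p = 3.69e-04), the count against naive was 1, and the block changed no other count. The cause of these changes was not tested.

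Scaling by array medians moved the median of all probes to 0.14 (0.0044 otherwise), so small differences changed sign: Dusp6 to 0.034, Tef to 0.032, Igf1r to 0.013, Hspa8 to 0.22, Gria1 to 0.11, Mtor to 0.061, Bcl11b to 0.088, Prox1 to 0.10, Sox9 to 0.027, Opalin to 0.15, Trem2 to 0.055, Hba-a1 to 0.078 and Dusp1 to 0.14. With saline alone as the control the sign changed for Prox1 (0.10), Slc4a1 (0.21), Tsc22d3 (−0.0065), Fkbp5 (−0.093) and Scrt2 (0.0026), and with naive alone for Sostdc1 (0.17) and Csrnp1 (−0.046). Slc4a1 was at 0.14 with the fixed and 0.0071 with the random BeadChip block. Leaving out an array gave ranges across 0 for Igf1r (−0.56 to 0.042), Slc6a3 (−0.31 to 0.91), Ddit4 (−0.052 to 0.66), Gng7 (−0.049 to 0.51), Gad1 (−0.085 to 0.66), Lhx6 (−0.073 to 0.58), Fezf2 (−0.70 to 0.057), Prox1 (−0.21 to 0.027), Tbr1 (−0.69 to 0.065), Gjb6 (−0.13 to 0.38), Cldn11 (−0.056 to 0.20), Hba-a1 (−0.54 to 0.16), Alas2 (−0.037 to 0.27), Slc4a1 (−0.24 to 0.13), Csrnp1 (−0.095 to 0.18), Rhoj (−0.036 to 0.18) and Scrt2 (−0.18 to 0.026). Within a shared BeadChip, 83 and 88 of the 100 named genes kept their direction in the 2 cases. Over all named genes and the other alternatives, 2124 values kept direction and side of the threshold, 6 lost the call, 1 gained it and 44 changed sign. With 3 arrays per group and no measure of signal over background, the number of arrays limits the precision.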
